A study of Mus musculus with 7 samples.

Results

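The RNA of 37 genes of the autophagy machinery was examined in mini-oocytes, cells like oocytes that arise in a flat culture when mouse embryonic stem cells (mESCs) express oocyte transcription factors. The genes were chosen by name, from the initiation kinases to the lysosomal membrane, and each symbol matched 1 of the 55364 genes listed. All 37 were among the 21780 genes that reached at least 1 TPM (a measure of transcript abundance, read number per exon length, brought to 1 common sum in each library) in at least 2 libraries. RNA-seq was available for 4F-mini-oocytes at day 7 (n = 2), 4F-mini-oocytes at day 21 (n = 3) and 8F-mini-oocytes at day 21 (n = 2). In the 4F line the factors are Nobox, Figla, Tbpl2 and Lhx8, and the 8F line carries Stat3, Dynll1, Sub1 and Sohlh1 as well. The paper states that the 8F line also carries an Npm2-mCherry reporter. Both lines were made from BVSC H18, a female mESC line of hybrid 129/C57BL6 strain, and in both the factors are fused to a destabilization domain, so that they are degraded unless the ligand Shield1 is present. All cultures received stem cell factor (SCF) and the ROCK inhibitor Y-27632 throughout, whereas Shield1 was left out of fresh medium from day 12, so the samples of day 7 were collected with it and those of day 21 after its withdrawal. Each sample was a pool, of 1000 cells at day 7 and of 10 cells at day 21, so day, Shield1 and the number of pooled cells cannot be told apart. Libraries of uninduced mESCs and of oocytes grown in the animal were not analysed here, and whether each line is 1 clone is not given in the sources used here. The labels do not say whether replicates came from separate cultures, so the p-values below measure only the spread between these samples, which may be technical.

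Autophagy encloses cytoplasm in a double membrane, the autophagosome, and delivers it to the lysosome for breakdown. The ULK kinase complex starts the process, the class III phosphatidylinositol 3-kinase (PI3K) complex marks the membrane with the lipid PI3P, and ATG9 vesicles and ATG2 bridges supply lipid to it. Enzymes related to those of ubiquitin transfer then attach small ATG8 proteins (the LC3 and GABARAP subfamilies) to the membrane, where cargo receptors bind them, and TFEB and TFE3 switch on many genes of autophagy and lysosomes. Autophagy is active after fertilization, and mouse embryos that lack both maternal and zygotic Atg5 arrest early.

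TFEB and TFE3, both among the 37 genes, bind the E-box CACGTG, so the promoters of the members were searched for these letters. RefSeq promoters (GRCm38.p6, from 250 bases before to 50 bases after each transcription start) were given for 31 of the 37 genes, 37 promoters in all. CACGTG, which reads the same on both strands, was found in promoters of 5 members, Atg14, Atg3, Atg5, Atg7 and Lamp1, or 13.5% of the members' promoters, and in 7.15% of all 32851 promoters. The longer TCACGTG, searched on both strands and always containing CACGTG, was found in 4 of these members, all but Atg5, or 10.8% of their promoters against 3.77% of all. Only Atg3 held the full palindrome TCACGTGA, which 0.974% of all promoters held. The promoters of 3 members are shown, those of the most abundant member, Lamp1, of the most abundant member that differed between the days, Atg5, and of the member with the palindrome, Atg3. Each stretch has 150 bases on the plus strand, with CACGTG in capitals. It ends before the RefSeq start or the annotated gene start, whichever comes first.
Lamp1, chr8:13159011-13159160: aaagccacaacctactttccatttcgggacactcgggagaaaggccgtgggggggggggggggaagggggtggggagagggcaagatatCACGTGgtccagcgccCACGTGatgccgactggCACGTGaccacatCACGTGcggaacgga
Atg5, chr10:44268189-44268338: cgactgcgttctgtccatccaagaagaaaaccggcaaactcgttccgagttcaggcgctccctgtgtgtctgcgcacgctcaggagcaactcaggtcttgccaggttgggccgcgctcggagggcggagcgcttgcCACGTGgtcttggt
Atg3, chr16:45158635-45158784: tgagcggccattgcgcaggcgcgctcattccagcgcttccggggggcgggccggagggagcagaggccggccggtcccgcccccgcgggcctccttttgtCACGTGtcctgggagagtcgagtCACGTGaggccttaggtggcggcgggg
Counted from the RefSeq start, the E-box of Lamp1 occurred 4 times, starting 61, 45, 28 and 15 bases before it. In Atg3 it occurred 94 and 71 bases before the RefSeq start, and in Atg5 once, 14 bases before it. The Atg3 stretch ends at the annotated gene start, upstream of the RefSeq start, so its E-boxes lie closer to its end than these distances. The annotated gene start of Atg5 lies downstream of its RefSeq start. The Atg7 promoter searched (chr6:114670846-114671145) lies inside the gene, whose annotated start is at 114643097. The Atg14 promoter searched (chr14:47568385-47568684, minus strand) lies downstream of the annotated start at 47570649. Its E-box starts 1 base before the RefSeq start. These matches describe the letters only.

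The steps of low TPM values gave estimates of 9051761 to 17190271 reads on genes per library, and every one of the 259 values of the 37 genes rested on at least 13.0 estimated reads. The 10 most abundant genes took 28.5% and 31.8% of all TPM at day 7 but between 10.2% and 14.0% at day 21, so TPM of the other genes had more room at day 21. The 10 oocyte markers summed to 12356 and 13838 TPM at day 7, 30577 to 33642 TPM in 4F- and 27222 to 27745 TPM in 8F-mini-oocytes at day 21, and none was at 0 in any library. They include Nobox and Figla, whose values hold transgene RNA as well, as the paper states. Dppa3 alone was at 7125 and 7804 TPM at day 7 and at 6987, 7689 and 7583 TPM in 4F-mini-oocytes at day 21. The 8 trophoblast markers summed to 1157 and 1642 TPM at day 7, most of it from Krt8 and Krt18, and to 37.5 to 148 TPM at day 21, with Cdx2 below 1 TPM in every library. The 8 pluripotency markers summed to 85.8 and 96.9 TPM at day 7, 243 to 360 TPM in 4F- and 137 and 178 TPM in 8F-mini-oocytes at day 21. Pou5f1 was at 24.4 and 30.1 TPM at day 7 and at 167, 154 and 267 TPM in 4F-mini-oocytes at day 21. Zfp42 went the other way, from 20.6 and 21.9 TPM to 6.35, 6.79 and 8.75 TPM, and Nanog and Tdgf1 were below 1 TPM in every library. The 8 granulosa markers summed to between 7.34 and 14.0 TPM, with Amh, Fst and Amhr2 below 1 TPM. The annotation's exon lengths include rare long exons, for example 10543 bases for Wipi2 against 1959 in its principal transcript, which lowers the TPM of such genes relative to others but not their differences between libraries. No strand option is stated for the counting, so reads cannot be split between a gene and a neighbour on the other strand, which matters for the 6 members with more than 10% of their exon bases inside other genes: Becn1 (43.9%), Atg9a (32.6%), Gabarapl1 (28.3%), Atg4d (19.3%), Uvrag (17.6%) and Sqstm1 (17.3%). Atg9a also shares exon bases with Gm29253, a gene on its own strand.

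Lamp1, the heavily glycosylated protein that coats the lysosomal membrane, was the most abundant of the 37 genes in every library, with 438 and 469 TPM at day 7, 503, 511 and 502 TPM in 4F- and 468 and 471 TPM in 8F-mini-oocytes at day 21. Atg5, which forms with ATG12 and ATG16L1 the complex that places ATG8 proteins on the membrane, followed at day 21 and stood behind Optn at day 7. Optn encodes optineurin, a receptor for mitochondria, bacteria and protein aggregates. Sqstm1, the p62 receptor for ubiquitin-marked cargo, lay near 100 TPM in the 4F libraries, with 94.99 and 115 TPM at day 7 and 106, 105 and 116 TPM at day 21. At the other end stood Atg4d, a protease of ATG8 proteins with 1.44 and 1.84 TPM in 8F-mini-oocytes, and Tfeb, the factor named above, with 2.36 and 1.81 TPM there.

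**Figure D1:**
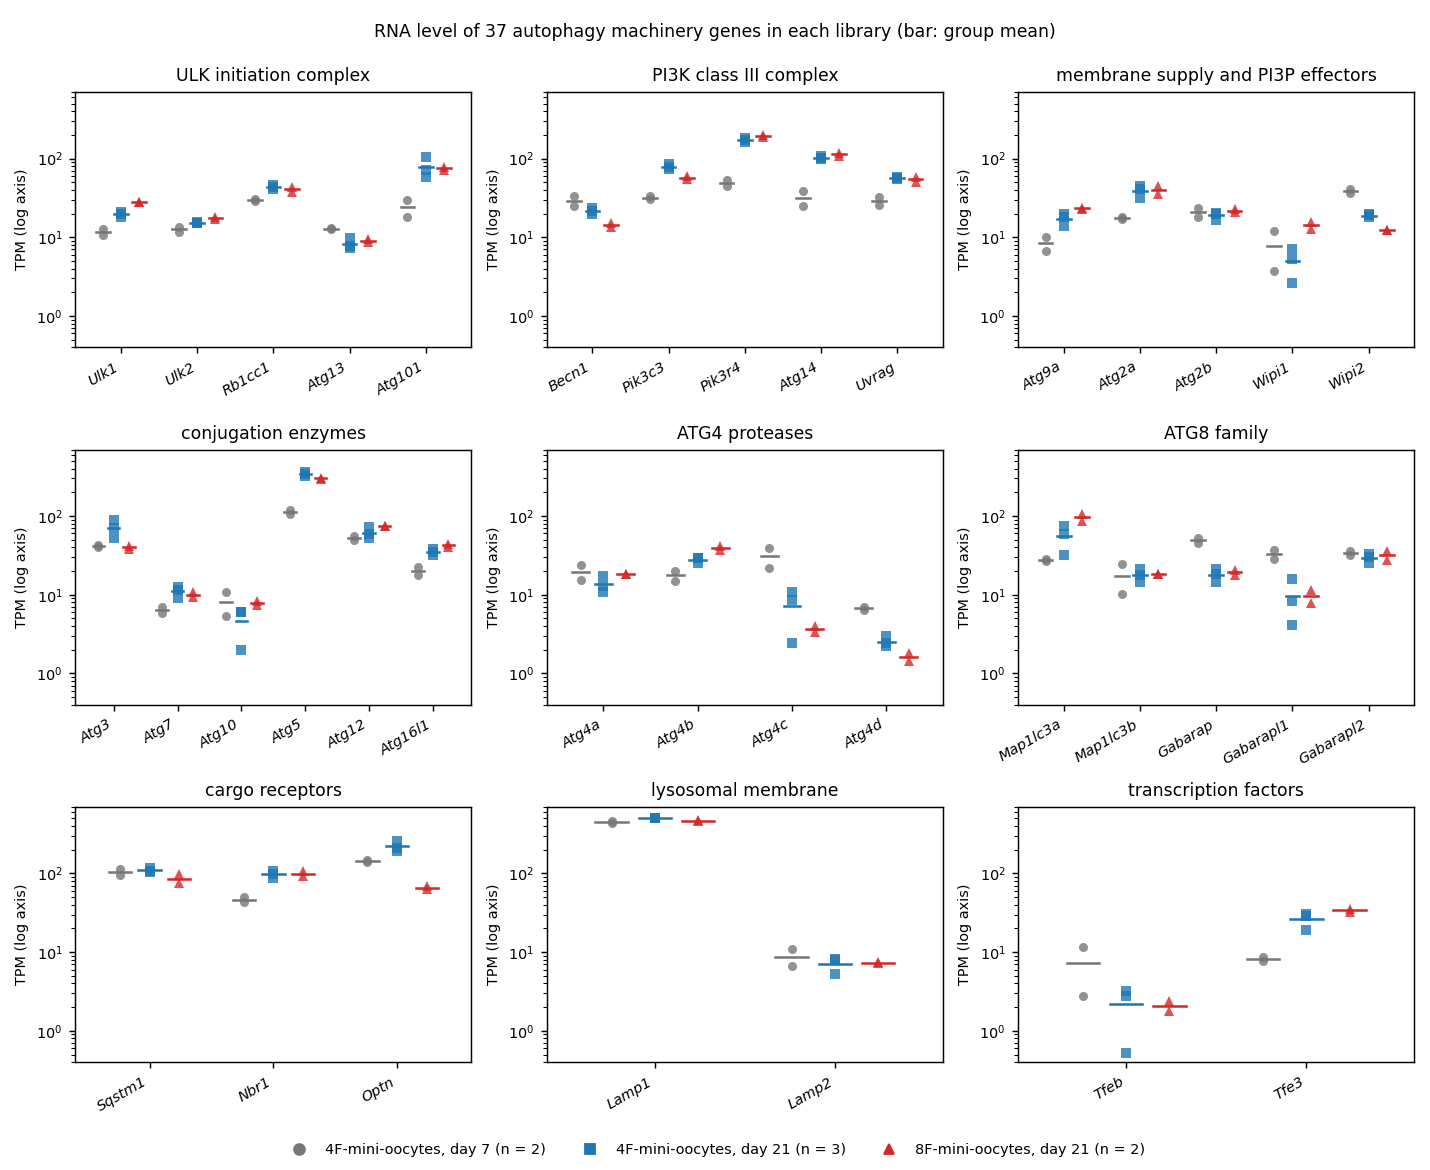
RNA level (TPM, logarithmic axis) of each of the 37 autophagy machinery genes, with 1 panel for each role. Points are single libraries of 4F-mini-oocytes at day 7 (n = 2), 4F-mini-oocytes at day 21 (n = 3) and 8F-mini-oocytes at day 21 (n = 2), and bars are group means. Lamp1 is the highest point of the 37 genes in all 7 libraries, Atg5 is higher in all 5 libraries of day 21 than in those of day 7, and Gabarap is lower in all 5.

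The comparison of 4F-mini-oocytes at day 21 with those at day 7 asked how the machinery's RNA differs between early and grown mini-oocytes. Of the 37 genes 16 rose and 5 fell (limma on log2(TPM + 1), Benjamini-Hochberg adjustment over all genes tested, FDR 0.05). That is 43.2% higher and 13.5% lower, where 40.6% of all genes tested were called, 25.3% higher and 15.3% lower. With a filter of 5 TPM, which 36 of the 37 members passed, 51.8% of all genes tested were called, 35.7% higher and 16.1% lower. The same members were called under that filter. By role, the genes that rose were 3 of 5 of the ULK complex, 4 of 5 of the PI3K complex, 2 of 5 of membrane supply and PI3P binding, 3 of 6 conjugation enzymes, 1 of 4 ATG4 proteases, 2 of 3 cargo receptors and 1 of 2 transcription factors. Roles were not tested against each other. The genes that fell were Wipi2, Atg4c, Atg4d, Gabarap and Gabarapl1, that is 1 of 5 genes of membrane supply and PI3P binding, 2 of 4 ATG4 proteases and 2 of 5 ATG8 genes. The median difference of the 37 genes was 0.28 on the log2 scale, beside 0.17 over all genes tested, and 20 of the 37 lay above the median of all genes. The direction of the smaller differences depended on how libraries were scaled to each other. Median-of-ratios rescaling moved the median of all genes to -0.07, quantile normalization to 0.04 and a voom fit on the recovered reads to -0.32, and the members called were then 9 higher and 7 lower, 10 higher and 7 lower, and 8 higher and 12 lower. Under these 3 scalings 56.3%, 58.8% and 40% of the members' calls were higher, against 76.2% on the TPM as deposited, and over all genes the shares were 48.3%, 52.0% and 37.3% against 62.3%. Relative to the median of all genes, 18 to 20 members lay above it under each scaling. Called higher under all 4 scalings were 8 genes, Atg101, Pik3c3, Pik3r4, Atg14, Atg2a, Atg5, Nbr1 and Tfe3, and called lower under all 4 were Wipi2, Atg4c, Gabarap and Gabarapl1. The ULK complex and the conjugation enzymes had 1 gene higher each under each of the other 3 scalings, whereas the PI3K complex had 4, 4 and 3. The trophoblast markers moved with this comparison, 5 of 6 tested being lower at day 21 and none higher. Of the pluripotency markers, 2 of 6 tested were higher and 1 was lower. The part of either set of markers in the differences was not tested. In pooled cells, a lower share of cells of a type and less RNA per cell cannot be told apart.

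**Figure D2:**
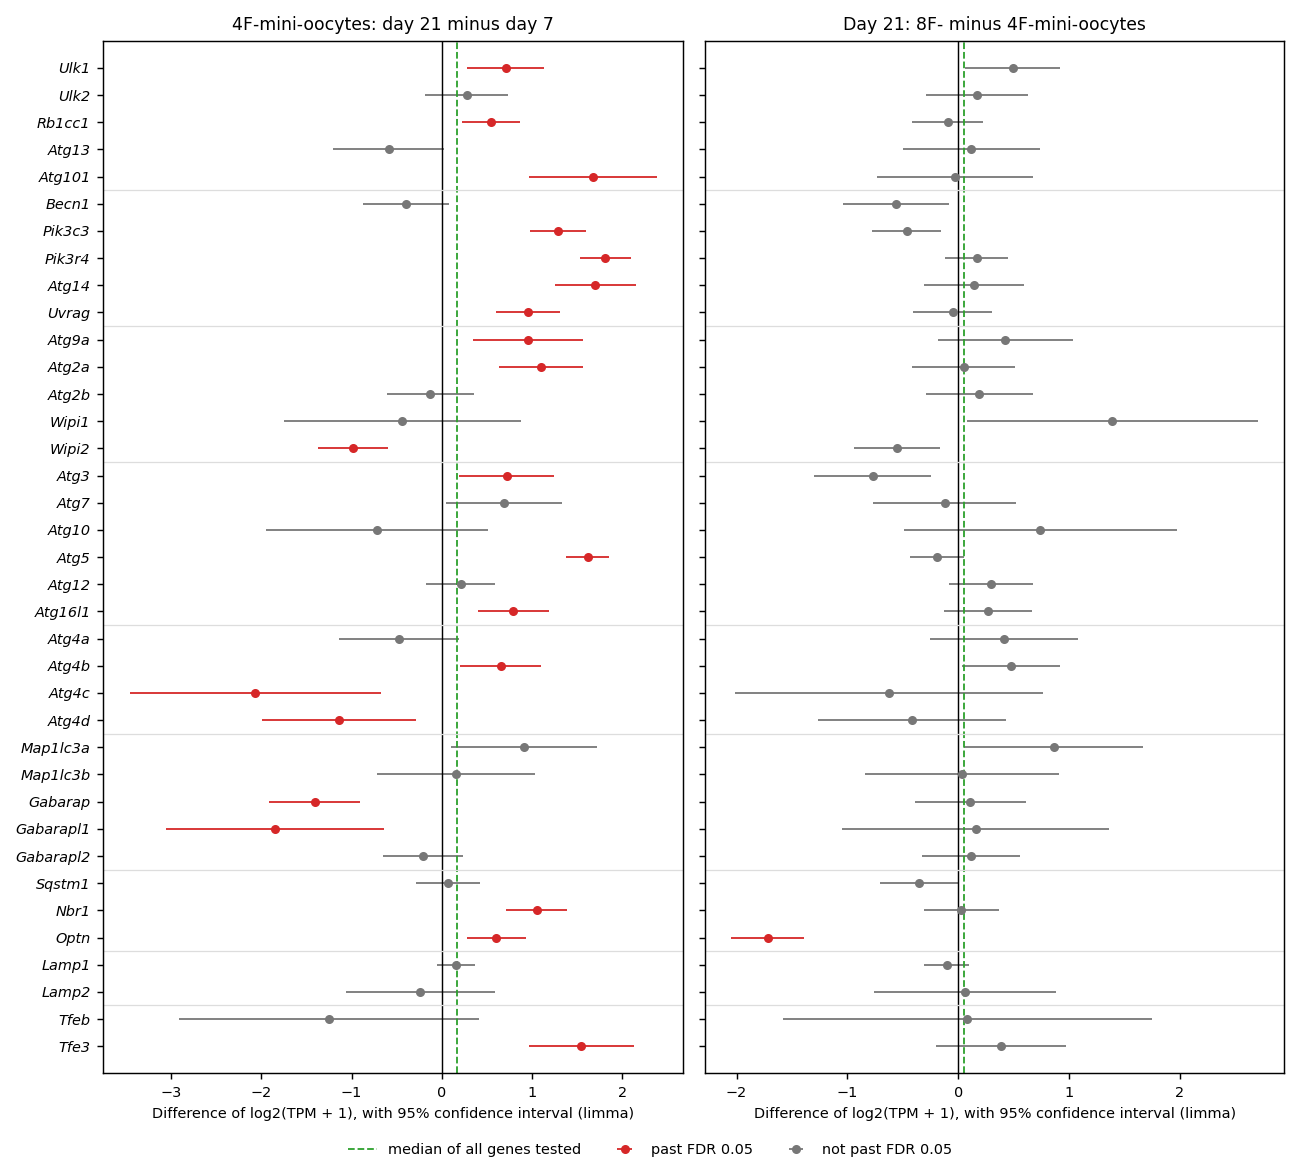
Difference of log2(TPM + 1) for each of the 37 genes, day 21 minus day 7 in the 4F line (left) and 8F minus 4F at day 21 (right). Points are limma estimates with 95% confidence intervals, red marks FDR 0.05 and the dashed line is the median of all genes tested. On the left 21 genes are red, 16 to the right of 0 and 5 to the left, and on the right Optn alone is red.

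In the ULK complex, Atg101, a small subunit that stabilises ATG13, showed the largest difference. Its RNA was at 17.9 and 30.2 TPM at day 7 and at 59.1, 72.6 and 104 TPM at day 21, so the groups did not overlap. The log2 difference was 1.67 (SE 0.29, adjusted p = 0.0048), and the mean was 3.26-fold higher. Ulk1, the kinase that phosphorylates most early targets, was at 10.7 and 12.6 TPM at day 7 and 21.1, 17.99 and 19.8 TPM at day 21, a log2 difference of 0.71 (SE 0.18, adjusted p = 0.02). Rb1cc1, the FIP200 scaffold of the complex, was at 28.96 and 30.3 TPM and 46.2, 43.4 and 41.5 TPM, a log2 difference of 0.55 (SE 0.13, adjusted p = 0.017). Neither of these smaller rises was called under the other 3 scalings, nor without replicate 1 of day 7, where the log2 differences were 0.59 for Ulk1 and 0.51 for Rb1cc1. Ulk1 also lost its call without replicate 1 or replicate 2 of 8F day 21 (0.71), which are in neither group compared but enter the estimate of the spread and the filter on low values. Ulk2, the paralog of Ulk1, did not pass the test, with 13.6 and 11.5 TPM at day 7 and 15.1, 15.9 and 15.1 TPM at day 21. Atg13, the regulatory subunit that links the kinase to FIP200, pointed the other way, with 12.8 and 13.1 TPM at day 7 and 7.82, 7.22 and 9.94 TPM at day 21, and did not pass the test on the TPM as deposited (log2 difference -0.59, adjusted p = 0.12). It was called lower after median-of-ratios rescaling (-0.90) and by voom (-1.20).

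In the class III PI3K complex 4 of 5 genes rose. Pik3r4, the regulatory subunit VPS15, was at 44.3 and 53.5 TPM at day 7 and 171, 165 and 185 TPM at day 21, a log2 difference of 1.81 (SE 0.12, adjusted p = 0.00012), the largest of the 37. Pik3r4 lies on chromosome 9 from 105642978 to 105687657 (mm10, plus strand). Atg14, the subunit that directs the complex to autophagosome formation, was at 38.4 and 24.7 TPM and 101, 108 and 98.5 TPM (log2 difference 1.70, SE 0.19, adjusted p = 0.00078). Pik3c3, the lipid kinase VPS34 itself, was at 33.6 and 30.3 TPM and 86.3, 72.8 and 78.7 TPM (log2 difference 1.28, SE 0.13, adjusted p = 0.00053). Every day 21 library thus exceeded both day 7 libraries for these 3 subunits, and all 3 were called in each of the 17 alternative analyses. Uvrag, which replaces ATG14 in the complex that acts on endosomes, was at 25.7 and 32.4 TPM and 59.03, 56.5 and 54.7 TPM (log2 difference 0.95, SE 0.15, adjusted p = 0.003) and lost its call only under voom (0.41). Becn1, the Beclin scaffold common to both complexes, did not rise with its partners. It was at 24.7 and 33.6 TPM at day 7 and 19.97, 21.4 and 23.6 TPM at day 21 and did not pass the test (log2 difference -0.40, adjusted p = 0.16), while it was called lower under the other 3 scalings (-0.73, -0.73 and -0.99). Its antisense neighbour Cntd1, which covers 43.9% of its exon bases, was at 14.8 and 19.1 TPM at day 7 and at 7.15, 8.57 and 8.82 TPM at day 21, and the part of shared reads was not tested.

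Of the genes that supply membrane or read PI3P, Atg2a, a lipid bridge between the endoplasmic reticulum and the growing membrane, was at 18.1 and 17.1 TPM at day 7 and 44.5, 31.9 and 41.2 TPM at day 21, a log2 difference of 1.10 (SE 0.20, adjusted p = 0.005). Its paralog Atg2b was at 23.9 and 18.02 TPM and 16.5, 19.95 and 20.5 TPM, so its groups overlapped. Atg9a, the scramblase of the vesicles that seed the autophagosome, was at 6.74 and 10.2 TPM and 18.1, 13.98 and 19.6 TPM. Its neighbour Gm29253 on the same strand was at 10.3 and 7.56 TPM at day 7 and at 13.2, 14.8 and 12.0 TPM at day 21. The antisense neighbour Ankzf1 was at 17.5 and 12.2 TPM and 9.61, 16.0 and 11.1 TPM, and the part of shared reads was not tested. The log2 difference of Atg9a was 0.96 (SE 0.25, adjusted p = 0.024). This call was lost in 9 of the 17 alternatives, among them leaving out replicate 1 of day 7 (0.69), replicate 1 (0.92) or replicate 3 (0.86) of 4F day 21 or either 8F library (0.96). Wipi2, which binds PI3P and recruits ATG16L1, went down, from 36.1 and 40.6 TPM to 18.9, 19.8 and 17.96 TPM (log2 difference -0.98, SE 0.16, adjusted p = 0.0038), and was called lower in all 17 alternatives. The paralog Wipi1 varied more between replicates than between days, with 3.70 and 11.9 TPM at day 7 and 2.66, 7.20 and 5.35 TPM at day 21.

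Among the conjugation enzymes Atg5 stood out in level and in change. Atg5 lies on chromosome 10 from 44268358 to 44364291 (mm10, plus strand). It was at 105 and 118 TPM at day 7 and 338, 326 and 367 TPM at day 21 (112 ± 8.71 against 343 ± 21.05 TPM, mean ± SD), with no overlap. The log2 difference was 1.61 (SE 0.10, adjusted p = 0.00011), the mean being 3.08-fold higher, and it was called in all 17 alternatives. Atg16l1, the partner that anchors the complex at the membrane, was at 22.4 and 17.7 TPM and 38.2, 35.4 and 32.2 TPM (log2 difference 0.79, SE 0.16, adjusted p = 0.0095), and Atg3, the enzyme that transfers ATG8 proteins to lipid, was at 42.8 and 39.8 TPM and 88.4, 51.96 and 70.2 TPM (log2 difference 0.72, SE 0.22, adjusted p = 0.04). Both kept a positive difference under the other scalings without passing the test, and Atg3 was called in 4 of the 17 alternatives only, losing its call when any library but replicate 2 of 4F day 21 was left out (log2 difference 0.54 to 0.77 over these). The remaining enzymes did not pass the test. Atg12, the ubiquitin-like partner of ATG5, was at 55.9 and 49.9 TPM and 72.7, 52.6 and 59.6 TPM, so the member of the same complex with the next highest level showed overlapping groups. Atg7, the activating enzyme at the head of both conjugation chains, was at 5.89 and 7.02 TPM and 12.4, 9.22 and 11.5 TPM (log2 difference 0.69, adjusted p = 0.085), and Atg10, which joins ATG12 to ATG5, was at 10.98 and 5.35 TPM and 5.96, 2.01 and 6.11 TPM.

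The ATG4 proteases, which trim ATG8 proteins before conjugation and later release them from lipid, moved in opposite directions. Atg4c was at 21.8 and 39.5 TPM at day 7 and 10.8, 2.40 and 8.47 TPM at day 21, and its log2 difference of -2.07 (SE 0.58, adjusted p = 0.029) was the largest fall of the 37. Its call was lost without either day 7 library, where the difference was -2.48 without replicate 1 and -1.65 without replicate 2. Atg4d was at 6.45 and 7.03 TPM and 2.20, 2.41 and 2.97 TPM (log2 difference -1.14, SE 0.36, adjusted p = 0.042). Its antisense neighbour Kri1 was at 9.75 and 8.45 TPM at day 7 and at 18.7, 17.3 and 14.6 TPM at day 21, the opposite order. The Atg4d call was lost without any of 6 of the 7 libraries, the exception being replicate 3 of 4F day 21 (log2 difference -1.07 to -1.19 over the 6). Atg4b, the protease with the broadest activity on ATG8 proteins, was at 20.2 and 15.01 TPM and 29.4, 29.4 and 25.03 TPM (log2 difference 0.65, SE 0.19, adjusted p = 0.031), and its call held under 6 of the 17 alternatives and under none of the other 3 scalings. It was lost without replicate 2 of day 7 (0.45), replicate 1 or 2 of 4F day 21 (0.61 each) or either 8F library (0.65). Atg4a, on the X chromosome, was at 15.4 and 23.9 TPM and 10.99, 17.3 and 13.1 TPM and did not pass the test. Its value is uncertain because 51.2% of its 50-base stretches also occur in other genes, among them a pseudogene copy. Reads that map to several places were dropped.

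Among the ATG8 genes the GABARAP members that differed were lower at day 21, and no LC3 gene passed the test. Gabarap, on chromosome 11 from 69991143 to 69994951 (mm10, plus strand), was at 52.8 and 45.1 TPM at day 7 and 14.4, 18.2 and 21.2 TPM at day 21 (48.9 ± 5.46 against 17.9 ± 3.44 TPM, mean ± SD). The log2 difference was -1.41 (SE 0.21, adjusted p = 0.0025), with the mean 2.73-fold higher at day 7, and it was called in all 17 alternatives. Gabarapl1 was at 28.5 and 37.3 TPM and 16.01, 4.12 and 8.41 TPM (log2 difference -1.85, SE 0.50, adjusted p = 0.026), replicate 2 of day 21 being the lowest and replicate 1 the highest of their group. Its call was lost without replicate 1 of day 7 (-2.03), replicate 2 of day 7 (-1.66) or replicate 3 of day 21 (-1.85), and its antisense neighbour 1700101I11Rik, which covers 28.3% of its exon bases, was at 7.57 and 11.3 TPM at day 7 and at 9.94, 1.36 and 2.81 TPM at day 21, so both were lowest in the same replicate. Gabarapl2 did not pass the test, with 36.4 and 31.6 TPM and 25.3, 30.05 and 32.7 TPM, and was called lower after quantile normalization (-0.62) and by voom (-0.76). Map1lc3a was at 28.1 and 26.9 TPM and 31.99, 59.3 and 75.3 TPM and did not pass the test (log2 difference 0.91, adjusted p = 0.074), and it passed without replicate 1 of day 21 (1.25). Map1lc3b, which encodes the LC3B protein that is usually followed as a marker of autophagosomes, was at 10.2 and 24.5 TPM and 17.9, 21.4 and 14.7 TPM, and its day 7 libraries differed from each other by more than the days did.

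Of the cargo receptors, Nbr1, a ubiquitin receptor related to p62, was at 42.98 and 50.1 TPM at day 7 and 109, 87.04 and 97.1 TPM at day 21, a log2 difference of 1.05 (SE 0.14, adjusted p = 0.0017), called in all 17 alternatives. Optn was at 149.6 and 139.7 TPM and 212, 258 and 195 TPM (log2 difference 0.60, SE 0.14, adjusted p = 0.013). It was not called under the other scalings, with 0.26 under median-of-ratios rescaling, -0.02 under quantile normalization and 0.06 by voom, and it lost its call without replicate 2 of day 7 (0.56). Sqstm1 did not pass the test on the TPM as deposited (log2 difference 0.06, 95% interval -0.29 to 0.42) and was called lower after quantile normalization (-0.56) and by voom (-0.50). Lamp1 likewise did not pass the test, with 0.16 (-0.05 to 0.36) on the TPM as deposited and a lower call by voom (-0.40). Lamp2, the other coat protein of the lysosome, was at 10.8 and 6.62 TPM and 8.09, 5.33 and 8.06 TPM, with overlapping groups.

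Of the transcription factors, Tfe3 alone passed the test. Tfe3 was at 8.61 and 7.61 TPM at day 7 and 29.1, 18.9 and 30.3 TPM at day 21, a log2 difference of 1.55 (SE 0.24, adjusted p = 0.0032), with the mean 3.22-fold higher and a call in all 17 alternatives. Tfeb was at 2.74 and 11.7 TPM and 3.24, 0.528 and 2.78 TPM and did not pass the test (log2 difference -1.25, 95% interval -2.91 to 0.41). The day 7 libraries of Tfeb lay far apart, the log2 difference being -2.13 without replicate 1 and -0.37 without replicate 2, and its lowest value, in replicate 2 of 4F day 21, rested on about 13.0 reads. Of the 5 members with the E-box CACGTG in a promoter, 3 rose (Atg14, Atg5 and Atg3), and Atg7 and Lamp1 did not pass the test. Of the 37 members 43.2% rose, and of all genes tested 25.3%, or 35.7% with a filter of 5 TPM. Whether genes with the E-box rose more often than others was not tested. Under each of the other 3 scalings Atg14 and Atg5 alone of the 5 were called higher, and Lamp1 was called lower by voom.

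**Figure D3:**
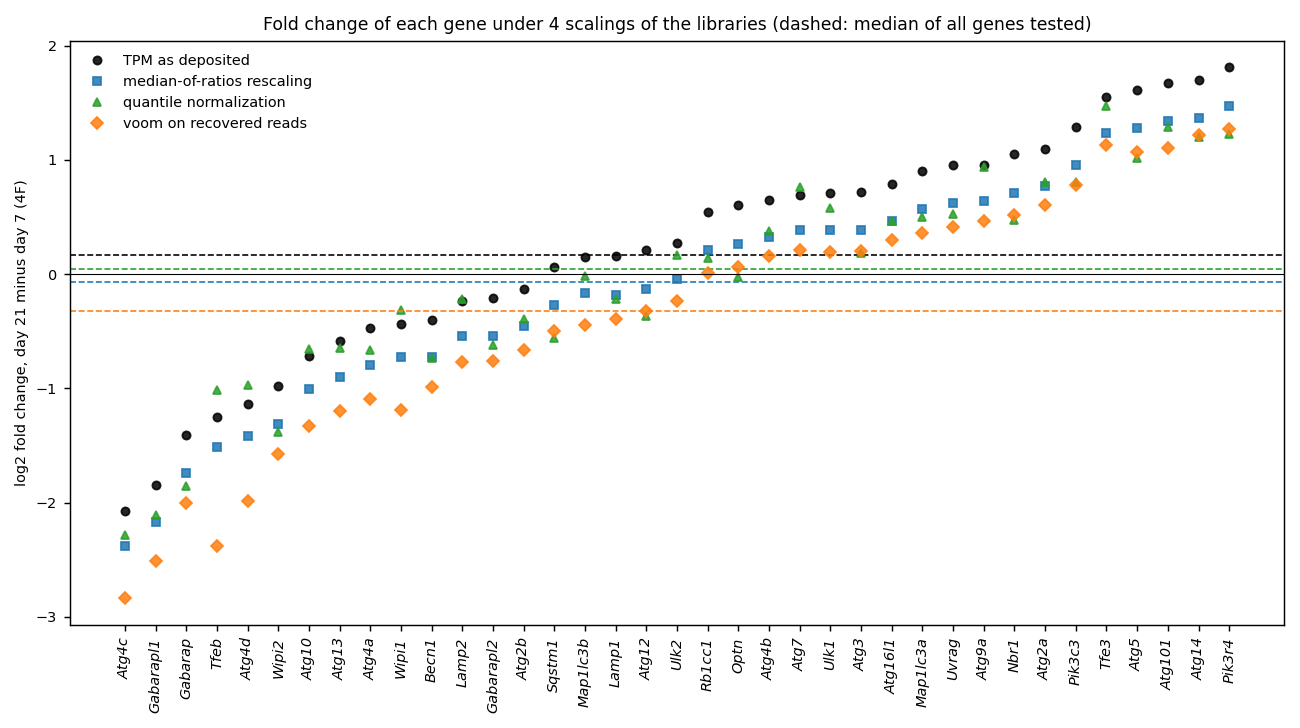
log2 fold change of each of the 37 genes, day 21 minus day 7 in the 4F line, under 4 scalings, TPM as deposited, median-of-ratios rescaling, quantile normalization and voom on recovered reads. Genes are placed in the order of their value on the TPM as deposited, and the lines give the median of all genes under each scaling. Pik3r4, Atg14, Atg101, Atg5 and Tfe3 stay above 1 under all 4, Gabarap and Gabarapl1 stay below -1, and genes near 0, such as Sqstm1 and Lamp1, change side.

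A share within a family does not change when all values of a library are multiplied by 1 factor, and 7 such shares were compared with an exact permutation test, two-sided, which cannot give less than p = 0.1 for 3 against 2 libraries and so cannot pass 0.05. Among the 5 ATG8 genes the GABARAP subfamily (Gabarap, Gabarapl1 and Gabarapl2) held 75.5% and 68.9% of the summed TPM at day 7, and 52.8%, 39.4% and 40.9% at day 21 in 4F-mini-oocytes. The mean share fell by 27.8 percentage points without overlap (exact permutation p = 0.1, the smallest possible). Map1lc3a alone held 18.0% and 16.3% at day 7 and 30.3%, 44.5% and 49.4% at day 21, while the summed TPM of the 5 genes was 156 and 165 at day 7 and 106, 133 and 152 at day 21. Gabarap held 33.8% and 27.3% at day 7 and 13.6%, 13.7% and 13.9% at day 21, so Map1lc3a gained share where Gabarap lost it.

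Atg4b held 31.6% and 17.6% of the summed TPM of the 4 Atg4 genes at day 7 and 55.1%, 57.1% and 50.5% at day 21, a mean gain of 29.6 points (exact permutation p = 0.1). The sum includes Atg4a, whose value is uncertain as stated above. Atg4c held 34.2% and 46.2% at day 7 and 20.2%, 4.66% and 17.1% at day 21. The Atg2a share of Atg2a and Atg2b was 43.1% and 48.7% at day 7 and 72.9%, 61.5% and 66.8% at day 21, and the Ulk1 share of Ulk1 and Ulk2 was 44.0% and 52.3% at day 7 and 58.2%, 53.1% and 56.7% at day 21 (exact permutation p = 0.1 for each). For Atg2 and Atg4 the difference of the means was wider than the range within either group, whereas for Ulk1 (7.87 points) it was narrower than the range at day 7 and came to 3.73 points without replicate 1 and 12.0 points without replicate 2 of day 7. The Tfeb share of Tfeb and Tfe3 was 24.1% and 60.6% at day 7 and 10.0%, 2.72% and 8.39% at day 21 (exact permutation p = 0.1), so the groups did not overlap although Tfeb itself did. The mean difference of -35.4 points for Tfeb was -53.6 without replicate 1 and -17.1 without replicate 2 of day 7. The shares of Wipi1 (exact permutation p = 0.5) and Lamp1 (exact permutation p = 0.4) overlapped between the days, Lamp1 making up 97.6% to 98.97% of Lamp1 and Lamp2 in every library. With the length of the principal transcript in place of all annotated exons, the mean GABARAP share was 65.5% at day 7 and 40.6% at day 21 and the mean Atg4b share 36.1% and 66.9%. Benjamini-Hochberg adjustment over the 7 shares cannot bring any of these below 0.05.

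**Figure D4:**
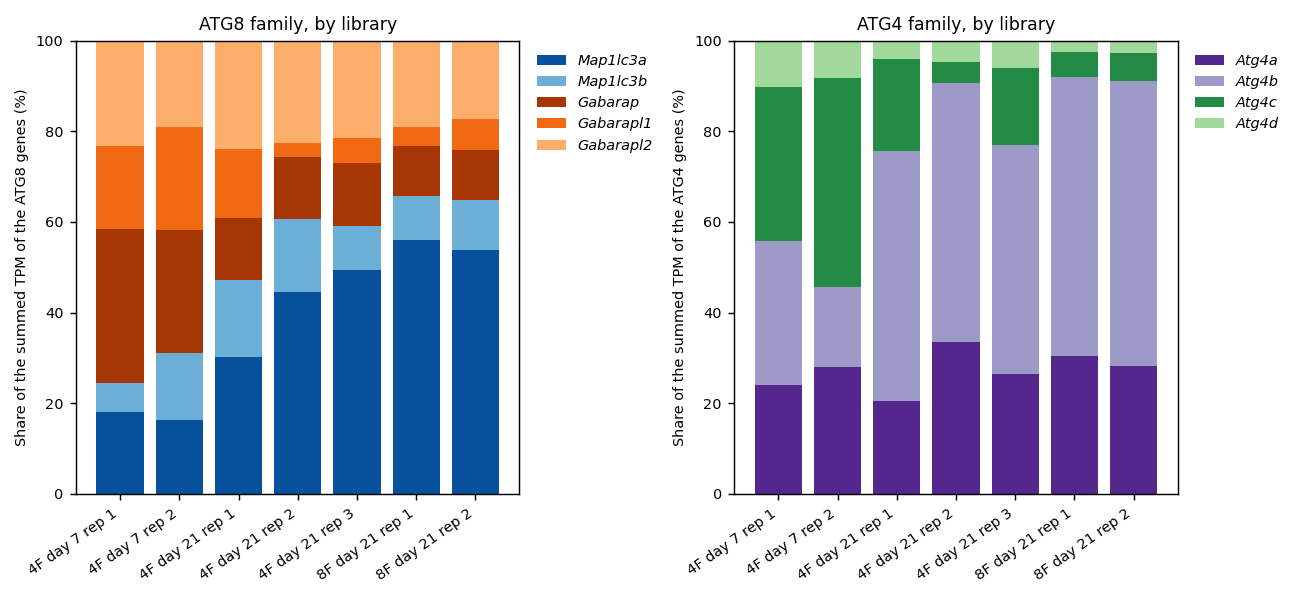
Share of each gene in the summed TPM of its family, in percent, for the 5 ATG8 genes and the 4 Atg4 genes in each of the 7 libraries, as stacked bars that add to 100. The share of Map1lc3a grows from 16.3% to 18.0% at day 7 to 30.3% or more at day 21, and Atg4b takes at least 50.5% at day 21 against at most 31.6% at day 7.

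The comparison of 8F- with 4F-mini-oocytes at day 21 asked how the machinery's RNA differs between the lines. Day and number of pooled cells were the same. The added factors cannot be told apart from other differences between the lines, such as the reporter of the 8F line. A single one of the 37 genes passed the test, Optn, which was lower in 8F-mini-oocytes, where 8.37% of all genes tested were called, 3.95% higher and 4.41% lower. This share of all genes was 0.41% without replicate 1 and 0.466% without replicate 2 of 8F day 21, and 4.86% to 5.07% without a 4F library of day 21. Optn was at 212, 258 and 195 TPM in 4F- and 63.9 and 68.5 TPM in 8F-mini-oocytes (222 ± 32.4 against 66.2 ± 3.25 TPM, mean ± SD). Every 8F library thus lay below every 4F library of either day. The log2 difference was -1.72 (SE 0.14, 95% interval -2.05 to -1.39, adjusted p = 0.0028), with the mean 3.35-fold higher in 4F-mini-oocytes, and it was called in all 17 alternatives. Optn lies on chromosome 2 from 5020642 to 5064051 (mm10, minus strand). The gene 4930551O13Rik on the other strand, which shares 1.95% of its exon bases, went the same way, with 59.4, 55.4 and 60.1 TPM in 4F- and 27.0 and 31.0 TPM in 8F-mini-oocytes at day 21, but unlike Optn it was lowest at day 7, at 18.8 and 18.3 TPM.

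No member was called higher in 8F-mini-oocytes by limma on the TPM as deposited. At an unadjusted p under 0.05, 9 members differed, 4 of them higher and 5 lower, where 22.3% of all genes tested did. The voom fit called 3 higher (8.11% of the members), Ulk1, Pik3r4 and Atg4b, besides Optn lower. In that fit 6.58% of all genes tested were called higher and 3.88% lower, with a median of 0.27 over all genes. Of the 4 higher at an unadjusted p, Wipi1 was at 2.66, 7.20 and 5.35 TPM in 4F- and 15.7 and 12.7 TPM in 8F-mini-oocytes (log2 difference 1.39, 95% interval 0.08 to 2.71, adjusted p = 0.2), and Map1lc3a was at 31.99, 59.3 and 75.3 TPM and 105 and 87.6 TPM (log2 difference 0.86, 0.05 to 1.67, adjusted p = 0.2). Ulk1 was at 28.1 and 27.7 TPM in 8F-mini-oocytes (log2 difference 0.49, adjusted p = 0.17) and Atg4b at 37.1 and 41.4 TPM (log2 difference 0.48, adjusted p = 0.19). For each of these 4 genes both 8F libraries lay above the 3 of 4F, with intervals that reach close to 0. On the lower side, Pik3c3 was at 59.7 and 54.4 TPM (log2 difference -0.47, adjusted p = 0.083), Wipi2 at 12.5 and 12.6 TPM (-0.56, adjusted p = 0.097), Becn1 at 15.1 and 13.6 TPM (-0.56, adjusted p = 0.16) and Atg3 at 38.6 and 41.1 TPM (-0.77, adjusted p = 0.091). Atg3 passed the threshold only when replicate 2 of 4F day 21, its lowest 4F value, was left out (-0.97). The intervals of the other 28 members held 0, and a test that misses the threshold does not show that the lines were alike. For the 2 most abundant of them the intervals were narrow, -0.31 to 0.10 for Lamp1 and -0.43 to 0.05 for Atg5, whereas for Tfeb the interval ran from -1.58 to 1.75.

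Within families the Wipi1 share of Wipi1 and Wipi2 was 12.3%, 26.7% and 23.0% in 4F- and 55.7% and 50.2% in 8F-mini-oocytes, a difference of 32.3 points (exact permutation p = 0.1, the smallest possible). The Atg4b share was 61.6% and 62.9% in 8F-mini-oocytes, 8.02 points above 4F (exact permutation p = 0.1), the Ulk1 share 61.0% and 62.2%, 5.61 points above (exact permutation p = 0.1), and the GABARAP share 34.4% and 35.1%, 9.64 points below in the means (exact permutation p = 0.2). Without replicate 1 of 4F day 21 the GABARAP difference was -5.43 points. Wipi1 was higher and Wipi2 lower in each 8F library than in each 4F library. The Atg2a, Lamp1 and Tfeb shares overlapped between the lines (exact permutation p = 0.7, 1 and 0.8). With principal transcript lengths the mean Wipi1 share was 9.56% in 4F- and 31.1% in 8F-mini-oocytes.

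Set against 4F-mini-oocytes of day 7, the 8F-mini-oocytes of day 21 differed in line, day, Shield1 and pooled cells together. This comparison shares the day 7 libraries with the comparison of days above. Of the 37 genes 14 were higher and 6 lower, where 37.2% of all genes tested were called, 24.2% higher and 13% lower. With a filter of 5 TPM, 32.7% of all genes tested were called higher and 14.5% lower. Map1lc3a was among those higher, at 28.1 and 26.9 TPM at day 7 and 105 and 87.6 TPM in 8F-mini-oocytes (log2 difference 1.77, SE 0.37, adjusted p = 0.011), where 4F-mini-oocytes of day 21 lay between, and the call was lost without replicate 1 of 8F day 21 (1.64). Becn1 was lower, -0.96 (SE 0.22, adjusted p = 0.015), against -0.40 in the 4F line. Its call was lost without replicate 2 of day 7 (-0.74) and without replicate 1 (-1.03) or replicate 2 (-0.88) of 8F day 21. Optn was also lower, -1.12 (SE 0.15, adjusted p = 0.0021), against a rise of 0.60 in the 4F line. Pik3r4 (1.98), Tfe3 (1.94), Atg14 (1.84), Atg5 (1.42) and Nbr1 (1.08) were higher and Wipi2 (-1.54) lower, each called in all 17 alternatives, as was Optn. Without replicate 1 of 8F day 21 the calls dropped to 13 of the 37, and without its replicate 2 to 10, where 18% and 17.3% of all genes tested were called.

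Beyond the 37 genes, 89 further genes of the pathway were examined in 6 lists, 85 of which were tested. From day 7 to day 21 of the 4F line 26 of them rose and 11 fell, with a median of 0.06. That is 30.6% higher and 12.9% lower, beside 25.3% and 15.3% of all genes tested. With a filter of 5 TPM, the shares of all genes tested were 35.7% and 16.1%. The other 3 scalings gave 19 higher and 20 lower, 19 and 23, and 12 and 33. On the TPM as deposited the counts were 1 higher and 1 lower of 9 other core autophagy genes, 6 higher and 1 lower of 14 genes of autophagosome-lysosome fusion, 8 higher and none lower of 14 other cargo receptors, 3 higher and none lower of 11 TFEB relatives and regulators, and 6 higher and 1 lower of 16 subunits of the V-ATPase, the proton pump that acidifies lysosomes. Of 21 lysosomal enzymes and proteins, 2 rose and 8 fell, with a median of -0.57, and this list was the only one of the 6 with more genes lower than higher under all 4 scalings (2 and 9, 3 and 9, and 0 and 13 under the other 3). The counts of the other lists moved with the scaling. Fusion genes were 5 higher and 3 lower after median-of-ratios rescaling, 4 and 4 after quantile normalization and 2 and 5 by voom. V-ATPase subunits were 4 and 4, 5 and 4, and 4 and 7 in the same order. TFEB relatives and regulators were 1 and 1, 1 and 2, and 1 and 3. The other core genes were 1 and 2 under each. Other cargo receptors stayed with more genes higher, at 6 and 1, 5 and 2, and 4 and 3.

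**Figure D5:**
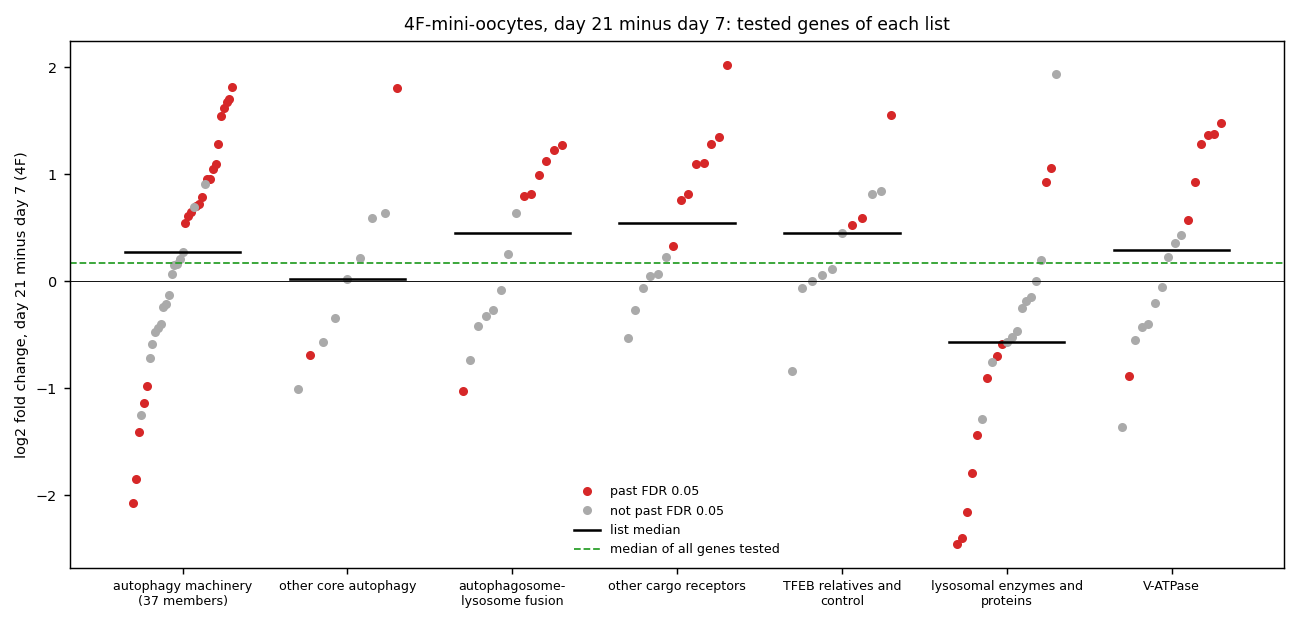
log2 fold change, day 21 minus day 7 in the 4F line, of single genes (points), for the 37 genes and for the 6 further lists of the pathway, with the median of each list as a bar and the median of all genes tested as a dashed line. Red points passed FDR 0.05. The 37 genes have a median of 0.28 and spread from -2.07 to 1.81, and the lysosomal enzymes and proteins have a median of -0.57 with Ctsf at -2.45.

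In each list the genes with the largest change that passed the rule for naming were as follows. Ctsf, a cysteine protease of the lysosome, was at 15.5 and 10.7 TPM at day 7 and 3.09, 0.868 and 1.14 TPM at day 21 (log2 difference -2.45, SE 0.48, adjusted p = 0.0076), while Npc2, a cholesterol carrier there, was at 12.8 and 10.8 TPM and 21.5, 30.9 and 24.9 TPM (1.05, adjusted p = 0.0078). Tex264, a receptor for the endoplasmic reticulum, was at 23.5 and 19.3 TPM and 88.4, 84.4 and 95.99 TPM (2.02, adjusted p = 0.00012). Rubcn, which inhibits the UVRAG form of the PI3K complex, was at 19.05 and 19.7 TPM and 84.2, 65.5 and 62.8 TPM (1.81, adjusted p = 0.0003), and Rragc, a GTPase of the amino acid sensing that controls TFEB and TFE3, was at 71.8 and 86.8 TPM and 246, 229 and 226 TPM (1.55, adjusted p = 0.00017). Each of these had groups that did not overlap. Stx17, the syntaxin of the autophagosome, rose by 1.27 on the log2 scale (adjusted p = 0.0013) and the V-ATPase subunit Atp6v1d by 1.48 (adjusted p = 0.00028). Lower were Vmp1, a scramblase of the endoplasmic reticulum (-0.69, adjusted p = 0.023), Vps33a, a tethering subunit (-1.02, adjusted p = 0.047), and Atp6v1a, the catalytic subunit of the pump (-0.89, adjusted p = 0.0036). The calls of Vmp1 (-0.70 and -0.67) and Vps33a (-1.08 and -0.97) were lost without replicate 1 or replicate 2 of day 7.

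Between the lines at day 21, 3 of the 85 further genes were higher in 8F-mini-oocytes and 4 lower, and 3 of those lower were cargo receptors. That is 3.53% and 4.71% of the 85, near the 3.95% and 4.41% of all genes tested. Voom called 11 higher and 3 lower, where it called 6.58% of all genes tested higher and 3.88% lower, with a median of 0.27 over all genes. Among these receptors Tax1bp1, which binds ubiquitin-marked cargo as Optn does, was at 229, 224 and 228 TPM in 4F- and 107 and 118 TPM in 8F-mini-oocytes (log2 difference -1.004, SE 0.10, adjusted p = 0.0051). Both 8F libraries were below the 3 of 4F and close to the 84.7 and 92.9 TPM of day 7. The V-ATPase subunit Atp6v0c was at 15.7, 10.1 and 9.37 TPM and 42.5 and 39.6 TPM (1.76, adjusted p = 0.016), and Atp6v1d went the other way, at 176, 205 and 163 TPM and 99.9 and 92.6 TPM (-0.90, adjusted p = 0.012). Gaa, the lysosomal enzyme that breaks down glycogen, was at 96.9, 106 and 74.6 TPM and 200.4 and 211 TPM (1.16, adjusted p = 0.013), and Rraga, a partner of RRAGC, was at 195, 149 and 139 TPM and 275 and 243 TPM (0.70, adjusted p = 0.048). All 5 of these calls needed both 8F libraries, and leaving out either leaves that group with no replicate. Without replicate 1 and replicate 2 of 8F day 21, the log2 differences were -0.94 and -1.07 for Tax1bp1 and 1.71 and 1.81 for Atp6v0c. They were -0.96 and -0.85 for Atp6v1d, 1.19 and 1.12 for Gaa and 0.61 and 0.79 for Rraga.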

How the data were processed

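RNA-seq libraries were made from pools of mini-oocytes with a stranded SMART-seq kit. The authors removed 3 bases of read 2 with Trim Galore, mapped the rest with HISAT2 to mm10, dropped reads on rRNA genes using bedtools and multimapping reads, and counted what remained with featureCounts on GENCODE vM25, sharing a read among overlapping genes as fractions. They deposited TPM, which was used here. The authors tested counts with edgeR. As TPM are not counts, here limma 3.58.1 (R 4.3.3, lmFit and eBayes with a trend) was fitted to log2(TPM + 1) for the genes that reached 1 TPM in 2 or more libraries. The fit held 3 groups taken from the sample labels, tests were two-sided, and the Benjamini-Hochberg adjustment ran over all 21780 genes tested (FDR 0.05). A fold change on this scale understates that of low genes. The instrument and read length differ between the study's libraries and are not assigned to them in the sources used here.

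Reads were recovered from the steps of low TPM values with the exon lengths of GENCODE vM21, which matched 55104 of the 55364 gene identifiers. These estimates gave the depth and a voom fit. Scripts were tested on simulated data. Deviations of samples with the same replicate number were hardly correlated (between -0.037 and 0.011), and the fit has no block. In a group of 2 libraries the deviations mirror each other, so this check cannot show whether samples were prepared together. Shares within families were compared with exact permutation tests over libraries.

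The 37 genes and all lists were chosen with earlier results of these data known. All 37 genes were named; of each further list, the gene with the largest change in each direction was named if it passed FDR 0.05, its groups did not overlap and its mean reached 10 TPM in the higher group. Alternatives were pseudocounts of 0.1 and 5, filtering at 5 TPM or not at all, quantile normalization, median-of-ratios rescaling, no trend in eBayes, only the 2 groups compared, a replicate block, voom and each library left out. Principal transcript lengths for the shares were added after the data were seen, and antisense neighbours and promoters were chosen likewise. A gene of the lysosomal list is not reported here and was left out of that list.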

Additional observations from a re-analysis of the deposited data

How the results depend on the processing

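Each comparison was repeated under 17 alternatives, 7 of which leave out 1 library. Day, Shield1 and pooled cells changed together, groups held 2 or 3 libraries, depth came from estimated reads, and small differences between the days have no settled direction across scalings. The cause of the changes below was not tested.

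From day 7 to day 21 of the 4F line, 10 of the 21 calls were made in all 17 alternatives, and of the values of single members 522 kept their direction and side of the threshold, 75 lost a call, 11 gained one and 20 turned direction. Leaving out 1 library gave 14 to 19 members called. Without a 4F library of day 21, 38.4% to 39.4% of all genes tested were called, and the fits without a library of day 7 leave that group with no replicate. With the replicate number as a block 13 members were called (11 higher and 2 lower), where 33.2% of all genes tested were. For 8F against 4F at day 21 the block gave 1 member. For 8F at day 21 against day 7 it gave 19, where 32.3% of all genes tested were called. Over all genes tested the block lowered the share called for 8F against 4F from 8.37% to 0.753%. Direction turned after median-of-ratios rescaling, quantile normalization and voom for Atg12 (-0.13, -0.37 and -0.32), Map1lc3b (-0.17, -0.018 and -0.45), Sqstm1 (-0.27, -0.56 and -0.50) and Lamp1 (-0.18, -0.22 and -0.40), after rescaling and voom for Ulk2 (-0.043 and -0.24), and after quantile normalization for Optn (-0.025). Without 1 library the difference ran from -0.32 to 0.066 for Atg2b, -1.17 to 0.29 for Wipi1, -0.44 to 0.75 for Map1lc3b, -0.069 to 0.20 for Sqstm1 and -0.56 to 0.079 for Lamp2, the highest value, or for Map1lc3b and Sqstm1 the lowest, being that without replicate 1 of day 7, and for Wipi1 that without replicate 2.

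For 8F against 4F at day 21 voom called 4 members (3 higher and 1 lower), where 6.58% of all genes tested were called higher and 3.88% lower. Without replicate 2 of 4F day 21 the members called were 2, and without another library of that group 1. Of all genes tested 4.86% to 5.07% were called in these fits. For 8F at day 21 against 4F at day 7 leaving out 1 library gave 10 to 22, with 13 without replicate 1 and 10 without replicate 2 of 8F day 21. In that comparison 38.1% to 39.4% of all genes tested were called without a 4F library of day 21. The fits without an 8F library leave that group with no replicate. With 1 library left out the differences between shares, in percentage points, turned for Atg2a (8F against 4F at day 21, -4.94 to 0.76), Wipi1 (day 21 against day 7 in 4F, -2.05 to 11.4), Lamp1 (-0.0079 to 1.02 between the days in 4F, -0.24 to 0.034 between the lines and -0.16 to 0.87 for 8F against day 7) and Tfeb (8F against 4F at day 21, -3.41 to 0.23).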
